A study of Mus musculus with 8 samples.

Results

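The immediate early genes Fos, Fosb, Fosl2, Jun, Junb, Jund, Egr1, Npas4, Nr4a1 and Arc were examined for open chromatin in granule neuron progenitors (GNPs) of the mouse cerebellum at postnatal day 7. All ATAC-seq peaks that overlapped the body of 1 of these 10 genes (of 21951 protein-coding genes annotated) or the 20 kb on either side were taken, whatever their height. That gave 71 of 152984 peaks in the wild-type (WT) list, 57 of 106974 in the heterozygous (het) list and 89 of 174407 in the mutant list. Joining neighbouring peaks of the 3 lists over gaps of up to 300 bp left 75 of 190582 open regions. These genes also respond to the dissociation of tissue into single cells, which every library went through, and no undissociated sample was analysed here.

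In ATAC-seq the Tn5 transposase cuts accessible DNA, so that a peak marks a stretch of open chromatin. The labels name the 3 groups by Chd7 genotype, in a strain written C56Bl6/J, and give no treatment of the cells, while the study's methods name the background C57BL/6N. In the study's nomenclature, WT is Chd7 f/f (3 libraries), mutant is Atoh1-Cre::Chd7 f/f (3 libraries) and het is Atoh1-Cre::Chd7 f/+ (2 libraries). All of these GNPs were isolated freshly by dissociation of the cerebellum and a density gradient. Atoh1-Cre acts in the lineage of the rhombic lip, to which GNPs belong, and Chd7 encodes an ATP-dependent chromatin remodeller. The study names the 3 WT and the 3 mutant libraries technical replicates.

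Immediate early genes are transcribed within minutes of a stimulus, before any new protein is made. Growth factors and calcium entry reach them through serum response factor (SRF), which binds the CArG box, and through CREB, which binds the cyclic AMP response element (CRE). The Fos and Jun proteins pair to form the AP-1 factor, Egr1 and Nr4a1 are transcription factors of other families, Npas4 is the factor most closely tied to neuronal activity, and Arc acts at synapses rather than on DNA.

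Each list was called on the pooled libraries of its genotype. No spread between libraries could therefore be measured, and no difference below was tested against replicate error. Intervals cover counting error alone. Depth after filtering was 50394313 tags in WT, 51030229 in mutant and 30923002 in het. Pileup, the number of extended tags over a summit, was compared between WT and mutant per tag. The tag size was 107 bp in WT and 76 bp in mutant, so that tag size and genotype cannot be told apart between these lists. The het list was called with other settings, and its median pileup over all peaks was 24, against 16 in WT and in mutant, so that only het ranks within the list were set beside the other lists. A rank is the percentage of peaks of a list with the same or a lower -log10 q, and 100 is the strongest. Of the 10 markers of GNPs, 10 had a promoter region in each list, which does not by itself identify the cells, since 65.5% of protein-coding genes had one in WT. In WT a promoter region was also present at 2 of 4 markers of the oligodendrocyte lineage, 4 of 5 of astrocytes, 2 of 3 of Purkinje cells, 3 of 4 of inhibitory interneurons, 1 of 4 of microglia and 2 of 3 of endothelium. Of the microglia markers, Cx3cr1, Aif1 and Csf1r had none in any list, and the promoter of P2ry12 had a pileup of 13 in WT and 28 in mutant (ratio 2.13, exact 95% CI 1.07 to 4.47). The promoter of Gdf10, a marker of Bergmann glia, had 17 in WT and 26 in mutant (1.51, 0.789 to 2.97). In the same list of markers, Fabp7 had 49 in both, Gfap 25 and 26, and Slc1a3 37 and 46. Pdgfra of the oligodendrocyte lineage had a promoter region in mutant alone, with a pileup of 26. The part of other cell types in the values below was not tested. Sox10 of the oligodendrocyte lineage, Aqp4 of astrocytes, Pcp2 of Purkinje cells, Gad1 of inhibitory neurons and Pecam1 of endothelium also had none in any list. The Chd7 promoter itself was listed in each genotype, at a pileup of 40 in WT, 52 in mutant and 63 in het. An open promoter does not report the deletion of an exon, nor the expression of a gene.

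The sequences under the open regions are shown first, because they hold the recognition letters of the factors that induce these genes. Letters are from GRCm38 (mm10) in the direction of the gene, with CArG boxes and CRE cores (TGACG, or its reverse complement) in capitals. Distances are from the 5′ end of the gene in GENCODE. The first 4 lie within 1 kb of a gene start, the next 3 farther away, and the Npas4 stretch is kept short because predicted RefSeq transcripts place it in an exon. The last lies upstream of the RefSeq start of Nr4a1, inside the gene as GENCODE draws it.
Fos promoter, around the CArG box at -0.30 kb, chr12:85473521-85473650, plus strand: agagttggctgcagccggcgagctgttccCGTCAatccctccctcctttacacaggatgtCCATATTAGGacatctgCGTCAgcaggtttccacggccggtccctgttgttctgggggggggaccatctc
Fos promoter, next to the start, chr12:85473750-85473849, plus strand: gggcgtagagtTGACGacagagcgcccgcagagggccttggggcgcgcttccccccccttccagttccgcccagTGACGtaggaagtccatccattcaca
Fosb promoter, around the CArG box at -0.26 kb, chr7:19310248-19310377, minus strand: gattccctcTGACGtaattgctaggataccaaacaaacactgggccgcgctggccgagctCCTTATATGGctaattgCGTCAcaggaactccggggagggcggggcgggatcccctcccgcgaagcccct
Npas4, 30 bases around the CArG box at -0.61 kb, chr19:4990912-4990941, minus strand: ggattcctgtCCTAATATGGagctgggatt
Arc, around the CArG box at -6.72 kb, chr15:74679226-74679355, minus strand: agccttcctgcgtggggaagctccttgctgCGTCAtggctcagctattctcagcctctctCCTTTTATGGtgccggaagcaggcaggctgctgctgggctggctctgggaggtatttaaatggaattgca
Fos, around the CArG box at 12.23 kb, chr12:85486054-85486183, plus strand: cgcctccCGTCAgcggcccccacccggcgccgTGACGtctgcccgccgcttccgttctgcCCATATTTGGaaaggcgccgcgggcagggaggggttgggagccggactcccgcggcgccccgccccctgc
Junb, around the CArG box at 2.09 kb, chr8:84976564-84976693, minus strand: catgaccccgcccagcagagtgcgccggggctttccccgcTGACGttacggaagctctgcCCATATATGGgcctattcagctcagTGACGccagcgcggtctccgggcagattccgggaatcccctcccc
Nr4a1, upstream of the RefSeq start, chr15:101266606-101266815, plus strand: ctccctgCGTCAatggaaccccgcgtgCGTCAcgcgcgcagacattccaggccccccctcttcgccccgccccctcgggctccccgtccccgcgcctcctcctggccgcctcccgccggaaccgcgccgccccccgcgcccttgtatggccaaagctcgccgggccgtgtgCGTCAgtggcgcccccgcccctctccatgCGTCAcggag

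A CArG box was found 13 times in the 75 regions, in 9 regions of 6 genes (Fos, Fosb, Junb, Egr1, Npas4 and Arc). Of these boxes, 5 lay in the promoter region of Egr1 on chromosome 18, between 0.98 and 1.31 kb from the start used, within an annotated exon. No RefSeq start was matched for Egr1, so that whether these boxes lie upstream of another start was not examined. The box at -0.30 kb of Fos is the serum response element through which growth factors induce the gene. The box 6.72 kb upstream of Arc lies in the stretch known as the synaptic activity-responsive element, which carries sites for several activity-regulated factors. The 8 boxes outside Egr1 lay a median of 48 bp from the nearest WT summit, 62 bp from the nearest het summit and 50 bp from the nearest mutant summit. In each list, 5 of these 8 were within 100 bp of a summit. At Npas4 (-0.61 kb) the WT summit was 1 bp from the centre of the box, the het summit 11 bp and the mutant summit 65 bp. At Junb (2.09 kb) these distances were 24, 16 and 35 bp. At Fos the box was 300 bp from the WT summit, 263 bp from the het summit and 14 bp from the mutant summit, so that the single Fos promoter peak had its highest point near the start in WT and het and near the serum response element in mutant. The Fos case was picked after the values were seen.

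Motifs were also counted on both strands in 1 window of 300 bases per region. It was centred on the WT summit, or on the mutant or else the het summit where WT had no peak. The box at -0.30 kb of Fos, 300 bp from the WT summit, was thus outside its window. A CArG box lay in 7 of the 75 windows (9.33%, Wilson 95% CI 4.59 to 18.03%), against 1.44% of 190517 windows over all regions. A CRE core lay in 32 of the 75 (42.7%, 32.1 to 53.9%), against 12.7% of all. The full palindromic CRE, TGACGTCA, which contains the core, lay in 0 of the 75 windows (upper limit 4.87%) and in 0.579% of all. Outside these windows it occurred in 2 member regions, at -9.94 kb of Egr1 and -0.21 kb of Jund. The AP-1 site TGACTCA, bound by the protein products of 6 of the 10 genes, lay in 5 of the 75 windows (6.67%, 2.88 to 14.7%), against 5.80% of all. The EGR site GCGTGGGCG lay in 1 window and in 0.158% of all. The GC box GGGCGG lay in 35 of the 75 (46.7%, 35.8 to 57.8%) and in 11.4% of all. Member windows had a median GC content of 60.7%, against 49.3% of all, and the part of GC content in these shares was not tested. Of the RefSeq promoters in GRCm38.p6, from 250 bases before to 50 after the start, 20.8% of 32851 held a CRE core, as did 5 of the 8 members matched there. A GC box was in 35.7% and in 6 of the 8, an AP-1 site in 5.20% and in 0. A CArG box was in 1.63% and in 0 of the 8, and the boxes at -0.30 kb of Fos and -0.26 kb of Fosb lie farther upstream than these 250 bases. A match is a run of letters and does not show that a factor was bound.

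**Figure D1:**
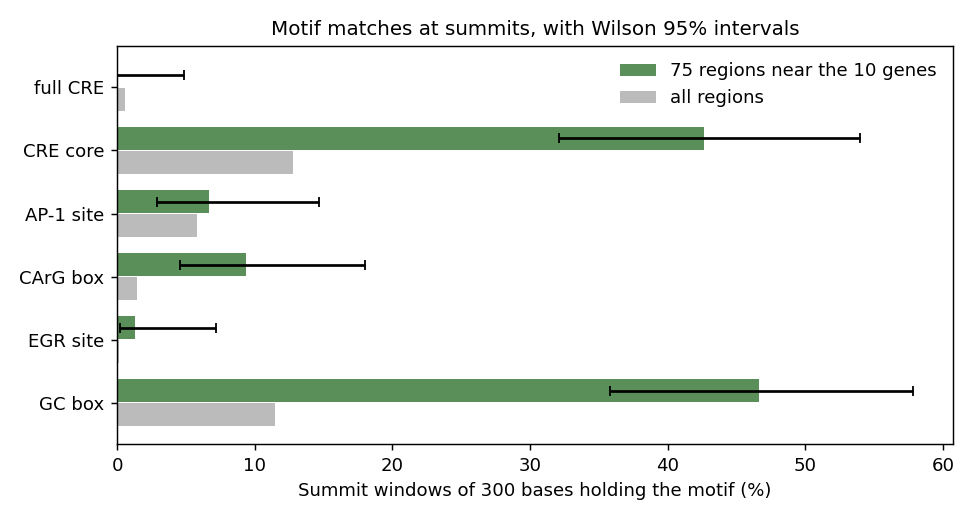
Share of 300-base summit windows (x axis, percent) that held each motif (y axis), for the 75 regions near the 10 genes with Wilson 95% intervals (green) and for all regions (grey). The CArG box and the CRE core stood at 9.33% and 42.7% near the 10 genes, against 1.44% and 12.7% over all regions, while the AP-1 site stood at 6.67% and 5.80%.

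The promoters of all 10 genes were open in all 3 genotypes. The promoter region was taken as the region within 1 kb of the GENCODE start with the highest WT pileup. Over all protein-coding genes, 65.5% of 21924 had such a region in WT, and the median WT pileup of the 10 members (52.5) was close to that of all promoters (52). Among the Fos family, the Fos promoter (chr12:85473398-85474232) had a pileup of 55 in WT and 60 in mutant, with 76 in het on its own scale. Per tag, the mutant to WT ratio was 1.08 (exact 95% CI 0.735 to 1.58). The promoter of Fosb (chr7:19309998-19310568), whose product takes the place of Fos in AP-1 after repeated stimuli, had a pileup of 50 in WT, 64 in het and 57 in mutant, a ratio of 1.13 (0.756 to 1.68). That of Fosl2 (chr5:32135012-32136640), which encodes the Fos-related protein Fra-2, had 63, 89 and 70, a ratio of 1.10 (0.769 to 1.57). The promoters of these 3 members were slightly higher in mutant, by less than the counting error. That of Fosl1, a Fos family gene outside the 10, was lower, with 14 in WT and 9 in mutant. Over all protein-coding promoters, 63.1% were higher in mutant.

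The promoter of Jun (chr4:95051651-95053966), the main partner of Fos in AP-1, was the tallest of the 10, with a pileup of 97 in WT, 170 in het and 101 in mutant. Its ratio was 1.03 (0.770 to 1.37). The promoter of Junb (chr8:84978576-84978996) had 38 in WT, 33 in mutant and 51 in het, and its ratio was 0.858 (0.521 to 1.40). The promoter of Jund (chr8:70698312-70700177), the Jun family member that is expressed without a stimulus in many cells, had 67, 98 and 72, a ratio of 1.06 (0.750 to 1.503). At the starts used, Junb was thus the lowest of the Jun family in all 3 lists and the single one of these 3 with a ratio below 1. A taller region inside the Junb gene, at 2.11 kb, went the other way. It had 54 in WT, 92 in het and 66 in mutant, a ratio of 1.21 (0.830 to 1.76).

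The zinc finger factor gene Egr1 had the second tallest promoter, with a pileup of 83 in WT, 85 in mutant and 114 in het, and a ratio of 1.011 (0.739 to 1.39). The promoter of Arc (chr15:74671788-74672793) had 29, 50 and 31, a ratio of 1.06 (0.615 to 1.82). The promoter of Npas4 (chr19:4989743-4990404) had 25 in WT, 19 in het and 20 in mutant, a ratio of 0.790 (0.416 to 1.48). The lowest WT pileup of the 10 was at Nr4a1 (chr15:101253914-101254712), which encodes an orphan nuclear receptor, with 19 in WT, 27 in het and 31 in mutant. Its ratio of 1.61 (0.882 to 3.02) was the single one past 1.5 in either direction. Promoters at least 1.5 times higher in mutant made up 1.31% of 14065 protein-coding promoters, and promoters at least 1.5 times lower 0.469%.

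The Nr4a1 value depended on which start was used. The GENCODE start is the first exon of a long transcript, and RefSeq places the start 12577 bp downstream. The region over that second start (chr15:101266173-101267078) was taller in WT and moved the other way, with a pileup of 34 in WT, 45 in het and 28 in mutant, a ratio of 0.813 (0.475 to 1.38). Its upstream letters, printed above, hold 4 CRE cores. The other 7 members with a RefSeq start had the same promoter region by either annotation.

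Over the 10 promoters the median log2 mutant to WT ratio was 0.08, with a range from -0.34 (Npas4) to 0.69 (Nr4a1), and the median over all protein-coding promoters was 0.05. The ratio was above 1 at 8 of the 10 and below 1 at 2. Over all promoters 63.1% were above 1, so that this split was not particular to these genes. The counting interval of all 10 ratios held 1.

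**Figure D2:**
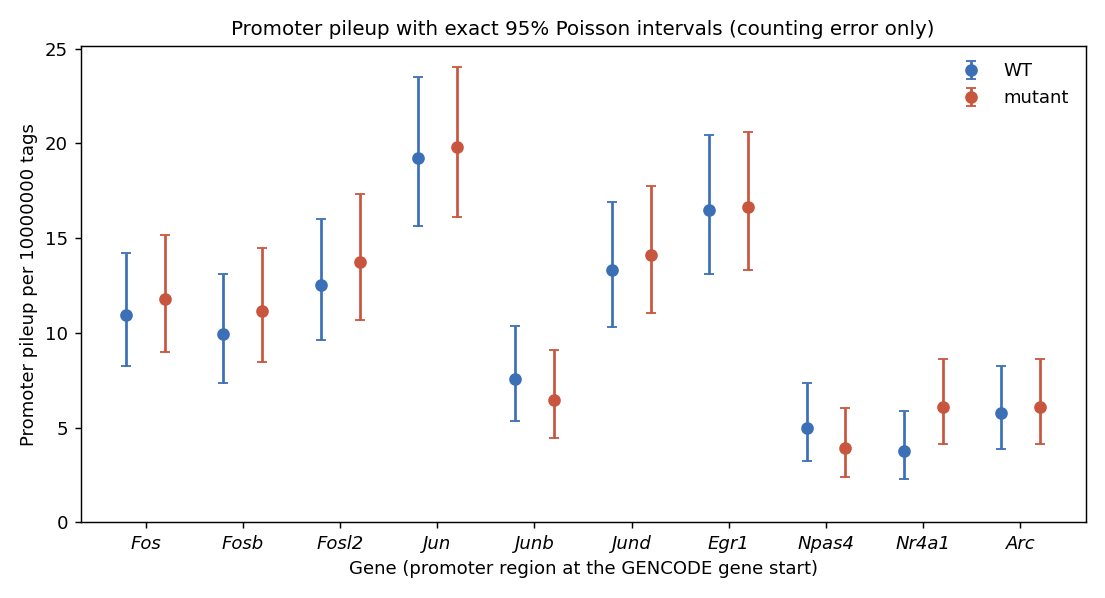
Pileup per 10000000 tags (y axis) of the promoter region of each gene (x axis) in WT (blue) and mutant (red), with exact 95% Poisson intervals for counting error. The WT and mutant intervals overlapped at all 10 genes, and the order ran from Jun and Egr1, the tallest, to Npas4 and Nr4a1, the lowest in WT.

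Ranks allowed the het list to be set beside the others. The Egr1 promoter was the strongest of the 10 in each list, with a rank of 94.6 in WT, 94.8 in mutant and 92.3 in het. The Nr4a1 promoter had 57.3, 53.2 and 80.6, so that its mutant rank stood apart from WT and het. The Npas4 promoter had 63.3 in WT and 54.3 in mutant against 18.7 in het, and its het rank was the outlying one. At Junb the ranks were 67.8, 59.2 and 54.8, in that order. The het rank lay between those of WT and mutant at 2 genes (Junb and Jund), above both at 2 (Jun and Arc) and below both at 6. Among the 48 member regions present in all 3 lists, the het rank lay below both others in 28, and over all such regions in 71.3%. Het calling settings and het genotype cannot be told apart in these ranks.

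**Figure D3:**
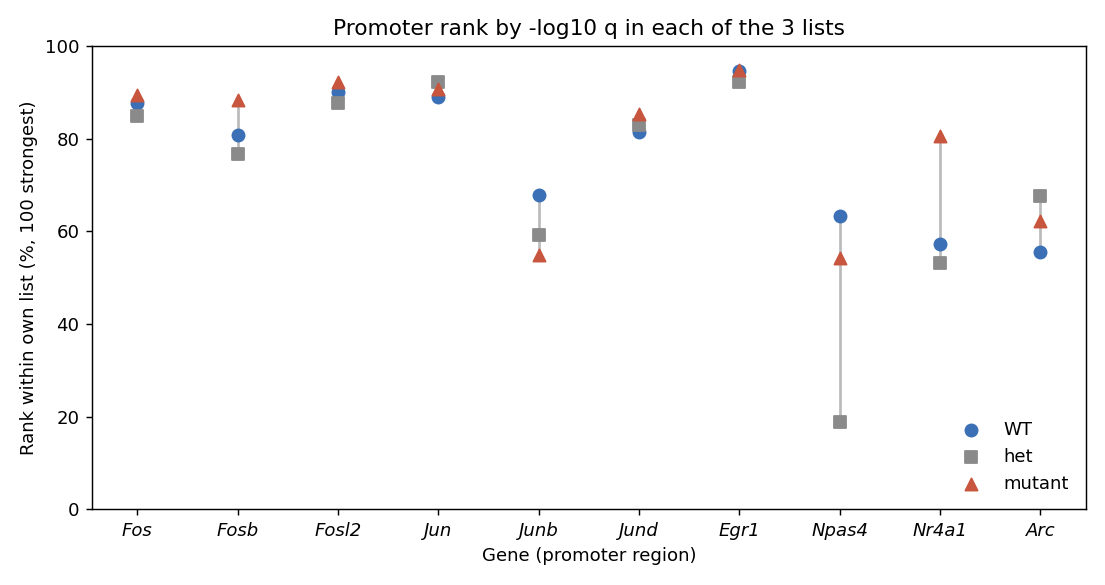
Rank by -log10 q within each list (y axis, percent, 100 strongest) of the promoter region of each gene (x axis) in WT (blue circles), het (grey squares) and mutant (red triangles), with a line from the lowest to the highest rank. The widest spans were at Npas4, from 18.7 in het to 63.3 in WT, and at Nr4a1, from 53.2 in het to 80.6 in mutant.

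The windows, promoters included, held peaks at a higher density than those of all protein-coding genes. In WT there were 14.9 peaks per 100 kb of member window, against 6.96 over the windows of all protein-coding genes. The values were 11.9 against 5.05 in het and 18.7 against 7.98 in mutant. Gene length was not matched. The member windows ran from 41.7 to 62.0 kb, while the windows of all genes were merged and include long gene bodies. The part of gene length in these densities was not tested. Of the 75 region summits, 45 were intergenic, 13 in a UTR, 12 in an intron, 4 in a coding exon and 1 in a non-coding exon. A member start was the nearest protein-coding start for 55 regions. The other 20 were nearest another gene, 7 of them in the window of Junb, 4 each in those of Jund and Nr4a1, 2 each in those of Fosb and Egr1 and 1 in that of Arc.

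The region outside a promoter with the highest WT pileup lay 18.48 kb upstream of Fos (chr12:85454910-85456081), with a pileup of 82 in WT, 124 in het and 81 in mutant, a ratio of 0.975 (0.709 to 1.34). It was taller than the Fos promoter in all 3 lists. The next lay 7.80 kb upstream of Nr4a1 (chr15:101245948-101246837), with 77 in WT and, in het and mutant, the highest pileups outside a promoter (126 and 82), a ratio of 1.05 (0.761 to 1.45), and had ranks of 98.7, 98.7 and 99.2, the highest of any member region. Both sites were thus taller than the promoters in whose windows they lay, whichever Nr4a1 start was used. Fosb had a pair of tall regions. That at -10.04 kb (chr7:19319391-19320372) had 62 in WT, 95 in het and 71 in mutant. That at 1.38 kb (chr7:19308141-19308922), in a non-coding exon of Fosb, had 61, 90 and 63. The fifth, 19.20 kb upstream of Egr1, lay in the UTR of Reep2, a neighbour, and had 59, 91 and 68.

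The map of the windows shows where the genes differed in layout. Fos had 9 regions and Fosb 10, spread over both sides of the gene. Fosl2 had 4 in the longest window (62.0 kb), with its promoter the only one above a pileup of 13 in WT. The 11 regions of the Junb window included the promoters of neighbours, and Egr1 had 5. The WT list held 5 peaks in each of the windows of Fosl2, Npas4 and Arc and 11 in that of Fosb.

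**Figure D4:**
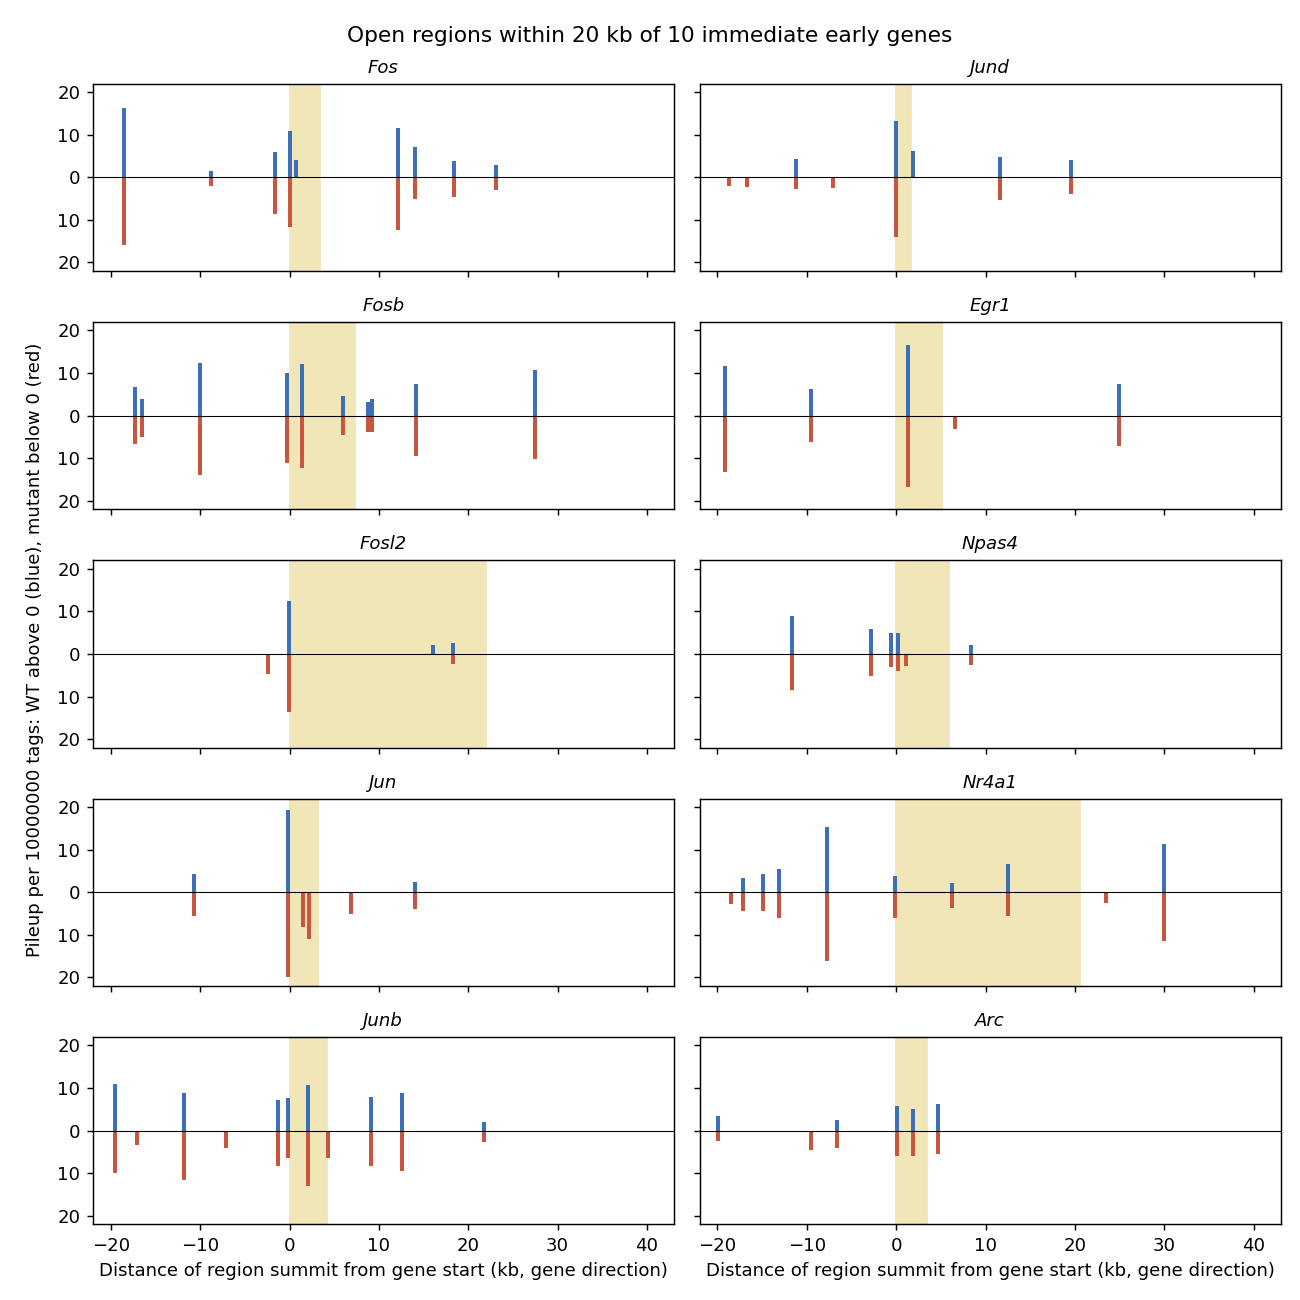
Height of each region (y axis, pileup per 10000000 tags) by the distance of its summit from the gene start (x axis, kb, in the direction of the gene), with WT above the zero line in blue and mutant below it in red. Shading marks the gene body, and most bars have a counterpart of like height on the other side: 57 of 75 regions were in both lists, 3 in WT without mutant and 15 in mutant without WT. Of the 15, 11 were in mutant alone and 4 in het and mutant, and the 3 were in WT alone. Over all regions 58.4% were in both lists, 20.1% in mutant alone and 3.03% in het and mutant without WT. Regions in WT alone made up 13.3%, and those in WT and het without mutant 1.66%.

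The question put to the WT and mutant lists was whether loss of Chd7 changed which sites near these genes were open. Of the 71 WT peaks, 63 had a mutant peak on at least 1 bp (88.7%, Wilson 95% CI 79.3 to 94.2%), against 77.2% of all WT peaks. Of the 89 mutant peaks, 69 had a WT peak (77.5%, 67.8 to 85.0%), against 69.3% of all mutant peaks. Of the 71 WT peaks, 53 had a het peak (74.6%, 63.4 to 83.3%), against 63.1% of all. Of the 89 mutant peaks, 63 had a het peak (70.8%, 60.6 to 79.2%), against 58.7% of all. The shares without a counterpart over all peaks were 22.8%, 30.7%, 36.9% and 41.3%, in that order. Het peaks were found again in mutant at 56 of 57 (98.2%, 90.7 to 99.7%) and in WT at 51 of 57 (89.5%, 78.9 to 95.1%). Over all het peaks these shares were 89.3% and 86.7%. Member peaks were also stronger than most, with a median WT rank of 63.9, and stronger peaks were shared more often over the whole list (median WT rank 61.2 of peaks with a mutant peak, 18.6 of those without). The part of peak strength in these shares was not tested.

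By region, 48 of the 75 were in all 3 lists (64.0%, 52.7 to 73.9%), against 45.7% of all regions. Another 9 (12%) were in WT and mutant without het, 4 (5.33%) in het and mutant without WT, 11 (14.7%) in mutant alone and 3 (4%) in WT alone. Over all regions these classes made up 12.7%, 3.03%, 20.1% and 13.3%, in that order. There were 0 regions in het alone and 0 in WT and het without mutant, each with an upper limit of 4.87%, while such regions made up 3.52% and 1.66% of all.

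The 8 WT peaks without a mutant peak were weak, with a median rank of 6.33. The strongest lay 1.71 kb upstream of Jun, in an intron of Junos, with a pileup of 47 that was only 2.33 times the local background, at a -log10 q of 5.23. The next was in the UTR of Fosl2, at 17.74 kb, with a pileup of 13 and a -log10 q of 3.75, and a het peak was present there. The third was in the UTR of Jun, at 0.44 kb, with a pileup of 45 that was 2.01 times its background, at a -log10 q of 3.29. Both Jun peaks belonged to the joined promoter region, which was present in mutant. The 3 regions in WT alone were at Fos (0.72 kb, pileup 20), Fosl2 (16.07 kb, pileup 11) and Jund (1.89 kb, pileup 31).

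The local background, recovered from pileup and fold enrichment, was high inside several of these genes. It was a median of 4.54 tags over the member peaks in WT and 4.64 in mutant, against 2.27 and 2.24 over all peaks. Inside the Jun gene body the median was 21.9 over 2 peaks in WT and 22.3 over 3 in mutant. Inside Jund it was 15.4 and 15.2, over 2 peaks each. Inside Egr1 it was 10.9 over 1 peak in WT and 11.3 over 3 in mutant. The fold enrichment of the promoter in WT was 4.30 at Jun and 4.23 at Jund, the 2 with the highest gene-body background, and 7.05 at Egr1. Low enrichment was not confined to high background. It was 4.24 at Junb and 3.79 at Arc, the lowest of the 10, where the WT gene-body background was 8.05 and 6.86. The 8 unshared WT peaks had a median local background of 7.77, against 4.401 for the 63 shared. Over all WT peaks the order was the other way, 1.76 for unshared and 2.49 for shared peaks, and the part of local background in the sharing of peaks was not tested.

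The 20 mutant peaks without a WT peak had a median rank of 20.01. The strongest lay 9.56 kb upstream of Arc (chr15:74681969-74682389), with a pileup of 23 and an enrichment of 6.32 times over background, at a -log10 q of 11.8 and a rank of 68.2. A het peak with a pileup of 20 and a rank of 35.2 was also there, and the WT list had no peak. The second was in the UTR of Prdx2, 4.28 kb from the Junb start, with a pileup of 33 and a -log10 q of 7.89. The third lay 29.08 kb from the Nr4a1 start used, with a pileup of 23 and a -log10 q of 7.20, inside a joined region present in all lists. Inside Jun, the mutant list also had peaks at 2.14 kb (UTR, pileup 56) and 1.54 kb (coding exon, pileup 42) that WT lacked. Of the 20 peaks, 7 overlapped a het peak, against 8149 of the 53529 unshared mutant peaks over all. Among unshared WT peaks, 1 of the 8 did, against 4602 of 34886 over all.

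Among the 57 regions in both WT and mutant, heights were close. The median log2 mutant to WT ratio was 0.08, against 0.07 over all 111314 shared regions, and 36 of the 57 were higher in mutant (63.2%, 50.2 to 74.5%), against 57.2% of all. At least 1.5 times higher in mutant were 4 of the 57 (7.02%, 2.76 to 16.7%), against 7.48% of all. At least 1.5 times lower were 2 (3.51%, 0.968 to 11.9%), against 3.61%. With a pileup of at least 20 in either list, 3 of 50 were higher (6%, against 7.88% of all such regions) and 2 lower (4%, against 3.53%). Both counts were near the background, and the range of log2 ratios ran from -0.67 to 0.77.

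The 4 regions past 1.5 times higher were small. At Jun (14.00 kb, chr4:95037790-95038374) the pileup was 12 in WT, 22 in het and 20 in mutant, a ratio of 1.65 (exact 95% CI 0.766 to 3.69). At the GENCODE start of Nr4a1 it was 19, 27 and 31, as given above. At Arc (-6.68 kb, chr15:74679183-74679536), the region that holds the CArG box and CRE core printed above, it was 13, 19 and 21, a ratio of 1.60 (0.762 to 3.47). This site and the peak at -9.56 kb, both distal upstream Arc sites within 10 kb, were stronger in the mutant list than in WT. The Arc promoter had nearly equal values. The other upstream region of the Arc window, at -19.90 kb and nearest the start of Jrk, went the other way. It had 17 in WT and 12 in mutant, a ratio of 0.697 (0.304 to 1.55). These Arc sites were set side by side after the values were seen. The fourth region past 1.5 times higher, in the first part of Nr4a1 (6.24 kb), had 11, 22 and 19. The intervals of these ratios all held 1.

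The 2 regions past 1.5 times lower were at Jund and Npas4. At Jund (-11.16 kb, chr8:70687413-70688009) the pileup was 22 in WT, 24 in het and 14 in mutant, a ratio of 0.628 (0.297 to 1.28). At Npas4 (-0.61 kb, chr19:4990830-4991097), over the CArG box, it was 25, 22 and 16, a ratio of 0.632 (0.315 to 1.23). Among regions with a pileup of at least 20 in either list, the third largest fall was at Fos (14.02 kb, chr12:85487799-85488039), with 36, 30 and 26, a ratio of 0.713 (0.414 to 1.21). Of the 5 shared regions of Npas4, 4 were lower in mutant, the most of any of the 10 genes as a share, and its median log2 ratio was -0.18. The median was between 0.00 and 0.33 at the other 9 genes, with the 3 shared regions of Jun all higher in mutant. None of these single-gene values was tested.

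**Figure D5:**
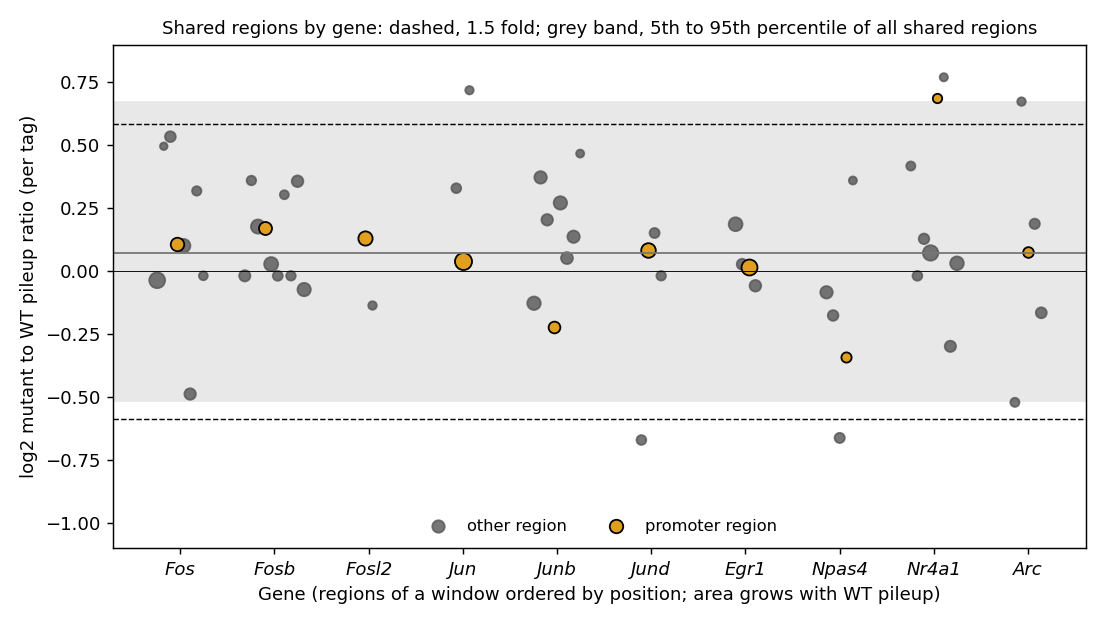
Log2 mutant to WT pileup ratio per tag (y axis) of the 57 shared regions by gene (x axis), promoters in orange and other regions in grey, with point area growing with WT pileup. The grey band is the 5th to 95th percentile of all shared regions, from -0.52 to 0.67, and the regions outside it are small ones at Jun, Jund, Npas4, Nr4a1 and Arc.

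Regions with a CArG box did not share a direction. The Npas4 site at -0.61 kb was lower in mutant, the Arc site higher, and the others had log2 ratios between -0.08 and 0.37. These were the Npas4 site at -11.65 kb (pileup 45 in WT, 43 in mutant), the Egr1 promoter (83 and 85), the Fos site at 12.18 kb (58 and 63), the Fos promoter (55 and 60), the Fosb promoter (50 and 57), the Junb site at 2.11 kb (54 and 66) and the site at -11.86 kb of Junb near Hook2 (45 and 59).

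Further genes of the rapid response were examined at their promoters. Of 22 listed (other Egr, Nr4a, Ier, Klf and Dusp genes among them), 20 had a promoter region in WT and in mutant. Their median log2 ratio was 0.00, with 10 above and 10 below 0. At least 1.5 times higher were 0, and 1 was at least 1.5 times lower: the promoter of Fosl1, which encodes the Fos-related protein Fra-1, had a pileup of 14 in WT, 18 in het and 9 in mutant, a ratio of 0.635 (0.242 to 1.57). Atf3 and Homer1 had no promoter region in any list at the start used.

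The factors that act upstream of these genes, SRF and its partners, CREB relatives and MEF2, were examined in the same way. Of 11, 10 had a promoter region in both lists, with a median log2 ratio of 0.13. Srf had a pileup of 72 in WT and 80 in mutant, and Creb1 85 and 84. Elk3, which encodes a ternary complex factor that binds DNA beside SRF, had 18 in WT, 32 in het and 37 in mutant. Its ratio of 2.03 (1.13 to 3.79) was the single one past 1.5 and its counting interval did not hold 1. It was 1 of 184 promoters in the genome at least 1.5 times higher in mutant, and no replicate error stands behind it. Mef2c had no promoter region in any list at the start used.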

How the data were processed

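ATAC-seq libraries of P7 GNPs from 3 Chd7 genotypes were analysed through 3 deposited peak lists, each called by the authors with MACS2 2.1.0.20150731 on pooled libraries at a q-value cutoff of 0.05, without control. Per the file headers, WT and mutant used alignments from a folder named for STAR without a shift (fragment 90 and 88 bp, tag size 107 and 76 bp), and het a folder named for bowtie read ends moved by -100 bp and extended to 200 bp. Bowtie is the aligner in the published methods for all libraries. Submitters' notes also name Trim Galore 0.4.1, STAR 2.5.0b, Bowtie 1.0.0 and Picard 1.139.

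Pileup is the signal the authors deposited, unscaled to depth. Fold enrichment is the ratio the authors' caller gave of pileup to local background after 1 was added to both, so local background was recovered as (pileup + 1) / fold enrichment - 1. The -log10 q values were deposited by the authors as well. Columns without a group numbered 0.

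Windows, starts and locations came from GENCODE M21 (mm10). Positions are counted from 1, and no peak passed the end of a chromosome. Promoter sequences were RefSeq, with 8 of 10 members matched. Ratios of pileup per tag carry exact (Clopper-Pearson) intervals and shares Wilson 95% intervals. These treat tags and peaks as independent, and cover counting error only. Nothing was tested, since pooled lists hold no replicates. The 10 members, the other gene lists, motifs and thresholds were chosen with earlier results of these data known. All member promoters were named, with the 5 tallest other WT regions, the 3 largest rises and falls (pileup of 20 or more in either list), the 3 strongest unshared peaks of WT and of mutant and up to 6 other listed genes whose promoter passed 1.5 fold. The fourth rise, the Arc site at -19.90 kb, CArG-box regions and further unshared peaks were named after their values were seen. The same holds for Srf, Creb1 and further cell type markers. Alternatives were other joining, overlap, q, height, window, scaling and start choices. Calculations used python 3.11.15, numpy 2.4.6, scipy 1.17.1 and pandas 2.3.3 and were tested on simulated data.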

Additional observations from a re-analysis of the deposited data

How the results depend on the processing

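Of 42 settings tried on the counts, shares and medians over the 10 genes, 34 left the value within its interval or within 1.5 times the count. WT peaks with a counterpart in mutant went from 88.7% to 95.8% when peaks within 300 bp counted as shared and to 94.3% when a -log10 q of at least 5 was asked of both lists. Those with a counterpart in het went from 74.6% to 63.4% at 50% reciprocal overlap and to 86.8% at that -log10 q. At a fold of 2, 0 regions were higher and 0 lower in mutant. The count of regions at least 1.5 times lower, 2, became 0 with fold enrichment in place of pileup and 1 in a window of 10 kb. The Nr4a1 promoter went from 0.69 to -0.30 (log2) with the RefSeq start, a choice added after the data were seen, and the median over the 8 promoters with a RefSeq start was 0.06. The cause of the other shifts was not tested. Setting the median ratio of all shared regions to 1 lowers every log2 ratio by 0.07, so that the log2 ratios of the Jun and Egr1 promoters became -0.03 and -0.06. Fold enrichment in place of pileup gave the Egr1 promoter -0.01.

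No paired analysis was possible because each list pools its libraries and carries no replicate number. For the same reason, no value without a given replicate can be computed. Depth limits what can be seen: member pileups ran from 7 to 101 tags in WT and mutant, and the counting interval of each of the 10 promoter ratios held 1.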
